A study of Mus musculus with 2 samples.

Results

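The miR-183 cluster (miR-183, miR-96 and miR-182) and the epithelial microRNAs (miRNAs) miR-203 and miR-205 were examined through 5 of the 1900 miRNA probes of the Toray 3D-Gene array. The members, mmu-miR-183-5p, mmu-miR-96-5p, mmu-miR-182-5p, mmu-miR-203-3p and mmu-miR-205-5p (mmu, the mouse prefix, is left out hereafter), were chosen by name, and each had 1 probe in 1 spot per array. The arrays came from ovarian tumours of C57BL/6 mice that were 5 weeks old when purchased and that carried ID-8 LUC2 cells, a luciferase-bearing mouse ovarian cancer line, in the peritoneal cavity. The bevacizumab group (1 array) received this antibody against human VEGF-A at 5 mg/kg, and the control group (1 array) received control IgG at 5 mg/kg. Both were dosed 2 times a week into the peritoneal cavity from day 14, and both were sacrificed at day 42. The texts name tumour RNA in 1 place and RNA from cells in another, and do not say how many animals gave each RNA. With 1 array per group there was no replicate check and no test, so each difference compares these 2 arrays. In such bulk RNA, fewer cells of a type and less of a miRNA per cell cannot be told apart.

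The miR-183 cluster encodes 3 related miRNAs that are processed from one primary transcript. It is known for its high level in sensory organs such as the inner ear and retina, and it is raised in many carcinomas, where miR-96 and miR-182 repress FOXO transcription factors. miR-203 is a skin miRNA that restrains the stem-cell factor p63 as keratinocytes differentiate, and miR-205 is found in stratified and glandular epithelia. miR-205 acts with the miR-200 family against ZEB1 and ZEB2, the repressors of E-cadherin, so these miRNAs serve as markers of the epithelial state.

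The mature sequences are shown because they determine what each miRNA can pair with and how closely the 5 resemble one another. They are taken from RefSeq (mouse build GRCm38.p6), which had an entry for all 5, and capitals mark the seed, bases 2 to 8 from the 5′ end, which selects target transcripts:
mmu-miR-183-5p: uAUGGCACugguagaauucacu
mmu-miR-96-5p: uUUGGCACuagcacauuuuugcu
mmu-miR-182-5p: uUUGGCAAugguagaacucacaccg
mmu-miR-203-3p: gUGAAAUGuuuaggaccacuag
mmu-miR-205-5p: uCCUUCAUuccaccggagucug
No 2 members had the same seed. miR-96-5p and miR-182-5p began with the same 7 bases, so they share bases 2 to 7 and part ways at the last seed base. miR-183-5p shared a run of 8 bases with miR-182-5p and a run of 7 bases with miR-96-5p. miR-203-3p and miR-205-5p shared at most 6 bases in a row with any other member. Of the 1915 miRNA names on the array, 1623 had a RefSeq sequence. Among these, no miRNA outside the 5 shared bases 2 to 7 with a member. The closest sequence to any member was still 7 base changes, insertions or deletions away (miR-182-5p for miR-183-5p and the reverse, miR-7674-3p for miR-205-5p). The letters of the array's probes were not used here, so the part that signal from related miRNAs plays in a spot was not tested.

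In GRCm38.p6 the cluster lies on the minus strand of chromosome 6, inside the long noncoding RNA gene Mirc35hg, between the coding genes Nrf1 and Ube2h. The Mir183 hairpin spans chr6:30169668-30169737, Mir96 spans chr6:30169446-30169551 and Mir182 spans chr6:30165918-30165992. Mir183 and Mir96 are 116 bases apart, Mir96 and Mir182 are 3453 bases apart, and the 3 hairpins together cover 3820 bases. Mir203 lies elsewhere, at chr12:112130880-112130955 on the plus strand between Aspg and Kif26a. Mir205 lies at chr1:193507463-193507530 on the minus strand, inside the noncoding host gene Mir205hg.

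All 5 members were above the detection limit on the control array, and only miR-182-5p was above it on the bevacizumab array. A probe counted as detected when its spot exceeded the mean of the blank spots by more than 2 SD of those blanks. That limit stood 8.06 intensity units above the blank mean on the bevacizumab array and 1.66 units on the control array. By the same rule the bevacizumab array detected 940 of 1900 miRNA probes (49.5%) and the control array 1416 (74.5%). Of the 5 members seen on the control array 4 were not detected on the bevacizumab array, against 499 of all 1416 probes seen on the control array (35.2%). The limit also let some blanks through, 59 of 896 blank spots (6.58%) on the bevacizumab array and 57 (6.36%) on the control array.

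**Figure D1:**
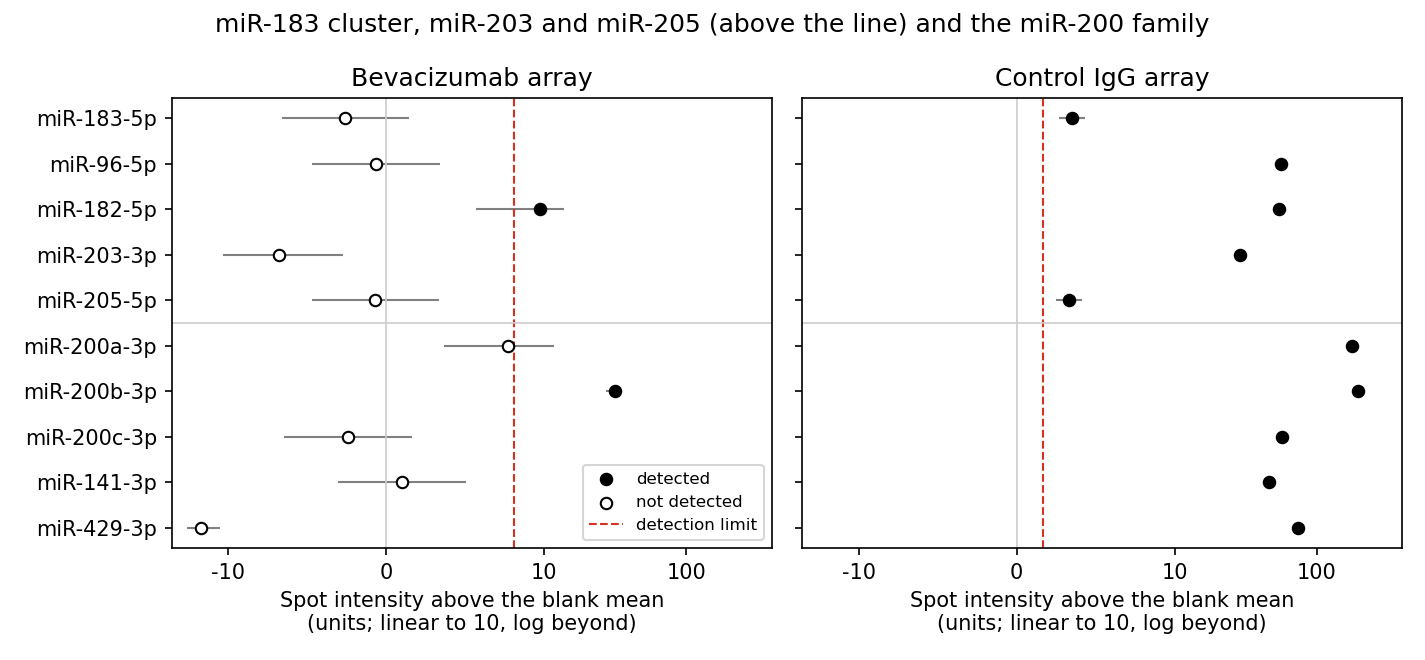
Spot intensity above the blank mean for the 5 members and the 5 miR-200 family miRNAs on the bevacizumab array (left) and the control IgG array (right), on an axis that is linear to 10 units and logarithmic beyond. Bars are 1 SD of the blank spots, filled points were detected and the dashed line is the detection limit; among the members only miR-182-5p, at 9.72 units, lies beyond the line on the bevacizumab array, and all 5 do on the control array.

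miR-96-5p, the cluster member whose seed mutations cause hearing loss, read 184 units on the bevacizumab array, or -0.647 units relative to the blank mean of 185 units. On the control array it read 129 units, or 56.0 units relative to a blank mean of 72.8 units. The bevacizumab reading lay in the middle of the blanks, 493 of 896 of which were as bright or brighter, and no blank of the control array reached the control reading. With the blank mean subtracted and no scaling, miR-96-5p was at least 6.92-fold lower on the bevacizumab array, a bound set by the lowest detected level there (8.09 units). After normexp correction on the blanks with an offset of 50 and quantile normalization, the bound was at least 1.85-fold lower.

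miR-182-5p was detected on both arrays, narrowly on the bevacizumab array. It read 195 units there, 9.72 units above the blank mean or 2.41 blank SD, against 127 units on the control array, 54.4 units or 65.7 blank SD above the blank mean. On the bevacizumab array 41 of 896 blank spots (4.58%) were at or above its reading, so its detection was not stronger than what the brightest blanks gave. Without scaling it was 5.60-fold lower on the bevacizumab array, and from 3.95-fold to 9.56-fold lower when that reading was moved up or down by 1 blank SD. After normexp and quantile normalization it was 1.77-fold lower (log2 -0.83).

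The detection of miR-182-5p on the bevacizumab array was lost with a limit of 5 SD, and with the blanks of its own block of the array in place of all blanks. The 28 blanks of that block averaged 187 units with an SD of 4.03, so miR-182-5p, at 194.7 units, lay under the block's limit of 195.5 units. No member was then detected on the bevacizumab array, where 918 of all 1900 probes (48.3%) passed by block and 624 (32.8%) at 5 SD. On the control array all 5 members passed by block, as did 75.1% of all probes, and 3 passed at 5 SD, as did 61.7%.

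miR-183-5p, the first hairpin of the cluster, was near the limit on the control array and under the blank mean on the bevacizumab array. Relative to the blank mean it stood at -2.58 units on the bevacizumab array and at 3.49 units on the control array, or 4.22 blank SD. Only 1 blank spot of the control array was as bright. A level of 3.49 units lies under the 8.06 units needed for detection on the bevacizumab array, so no bound on a fold could be given. The probe of miR-183-5p sits beside that of miR-182-5p in the same block, at columns 3 and 4 of row 1. Readings of different probes are not comparable as amounts, since each probe binds its miRNA with its own strength.

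miR-203-3p was at 178 units on the bevacizumab array, or -6.77 units relative to the blank mean, with 817 of 896 blanks as bright or brighter. On the control array it was at 102 units, 28.9 units or 35.0 blank SD above the blanks. It was at least 3.58-fold lower without scaling and at least 1.40-fold lower after normexp and quantile normalization. miR-205-5p stood at -0.677 units relative to the blank mean on the bevacizumab array and at 3.31 units on the control array, or 4.0 blank SD, where 1 blank spot was as bright. As with miR-183-5p, its control level was too low for a bound.

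Set against the other miRNAs, the comparison without scaling had 148 of the 917 miRNAs detected on both arrays (16.1%) lower by 2-fold or more and 373 (40.7%) higher by as much. miR-182-5p was 0.179 times as high on the bevacizumab array as on the control array, against 1.77 times for the median miRNA. Of the 917 miRNAs, 69 (7.52%) had a lower ratio. To be among the 917 a probe had to exceed 8.06 units on the bevacizumab array but only 1.66 units on the control array. The 499 probes detected on the control array alone are left out. Low ratios of dim probes are therefore missing from both the median ratio and this share. Had the members followed that median ratio, miR-96-5p would have read 98.9 units above the blanks on the bevacizumab array, miR-182-5p 96 units and miR-203-3p 51.1 units, all beyond the limit. miR-183-5p at 6.16 units and miR-205-5p at 5.85 units would have stayed under it. Relative to the median miRNA, miR-182-5p was 9.88-fold lower, miR-96-5p at least 12.2-fold and miR-203-3p at least 6.31-fold lower. With that scaling 22.8% of the 917 were lower by 2-fold or more and 9.92% higher by as much. After normexp and quantile normalization 105 of the 917 (11.5%) were lower by 2-fold or more and 96 (10.5%) higher by as much. No value or bound of a member reached 2-fold in that setting, and a bound does not show that the difference was smaller. Of the 499 probes seen on the control array alone, 15 (3.01%) had a bound of 2-fold or more there. Without scaling 53 of the 499 (10.6%) had one, miR-96-5p and miR-203-3p among them.

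How often a probe was lost depended on how bright it was on the control array. Of probes up to 10 units above the blanks, where miR-183-5p and miR-205-5p lie, 399 of 607 (65.7%) were not detected on the bevacizumab array. Of those at 25 to 50 units, where miR-203-3p lies, 21 of 133 (15.8%) were not detected. Of those at 50 to 100 units, which hold miR-96-5p and miR-182-5p, 14 of 109 (12.8%) were not detected, and above 100 units 5 of 231 (2.16%). The loss of miR-183-5p and miR-205-5p was thus what most probes of their brightness showed. That of miR-96-5p and miR-203-3p was shared by a minority of all probes in their bands. It was not a minority among the miRNAs there with under 50% G and C bases, as both have. Of these, 50% were not detected at 50 to 100 units and 57.9% at 25 to 50 units.

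**Figure D2:**
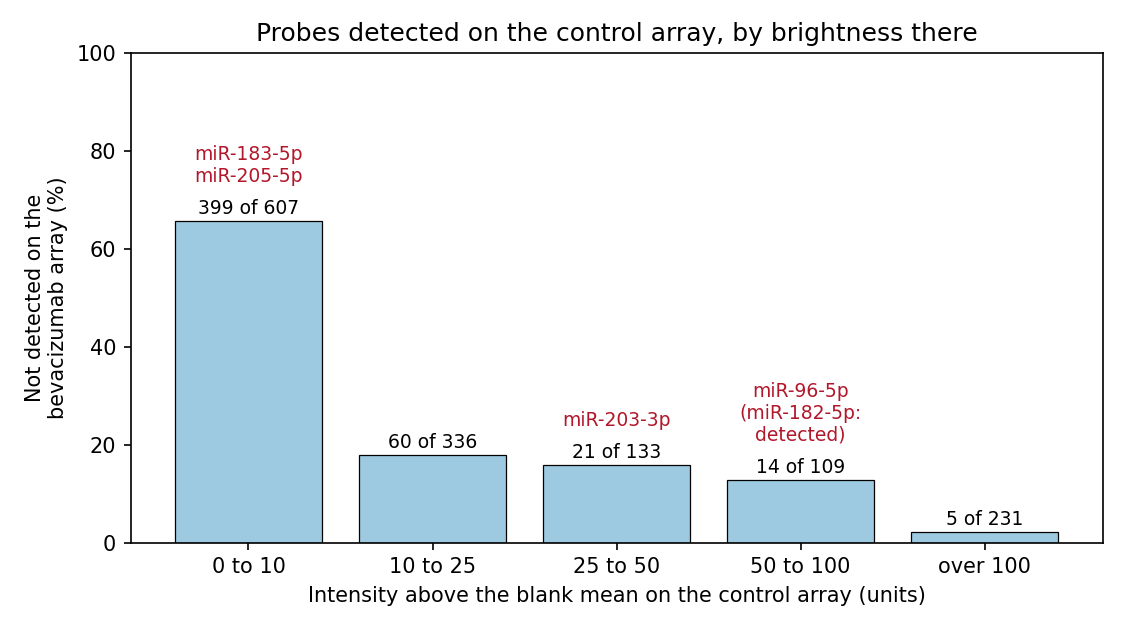
Share of the miRNA probes detected on the control array that were not detected on the bevacizumab array, in percent, by their intensity above the blank mean on the control array; the count stands over each bar and the members over the bar of their band. The share is 65.7% in the dimmest band, which holds miR-183-5p and miR-205-5p, and 12.8% at 50 to 100 units, which holds miR-96-5p and miR-182-5p.

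Base composition moved with the loss among the miRNAs at 25 units or more on the control array, which hold miR-96-5p, miR-182-5p and miR-203-3p but not the dimmer miR-183-5p and miR-205-5p. Of the members, 4 were poorer in G and C than the median miRNA of the array and miR-205-5p was richer. G and C made up 39.1% of the bases of miR-96-5p, 40.9% of miR-183-5p and of miR-203-3p, 48.0% of miR-182-5p and 54.5% of miR-205-5p, against a median of 52.2% over the 1614 array probes with a sequence and a single name. Among these miRNAs with under 50% G and C, 14 of 28 (50%) at 50 to 100 units on the control array were not detected on the bevacizumab array, and 11 of 19 (57.9%) at 25 to 50 units. Among those with 50% or more, 0 of 66 (0.0%) at 50 to 100 units and 4 of 91 (4.4%) at 25 to 50 units were not detected. Above 100 units the counts were 4 of 65 (6.15%) with under 50% and 0 of 131 (0.0%) with 50% or more. Of the miRNAs detected on both arrays at 25 units or more on the control array, the 62 with 40 to 50% G and C had a median unscaled ratio of 0.188 on the bevacizumab array over the control array. miR-182-5p, at 0.179, lay beside that median. The median ratio was 0.121 for the 21 miRNAs below 40%, 1.12 for the 104 at 50 to 60% and 1.93 for the 180 at 60% or more. The part of base composition in the members' lower readings was not tested.

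**Figure D3:**
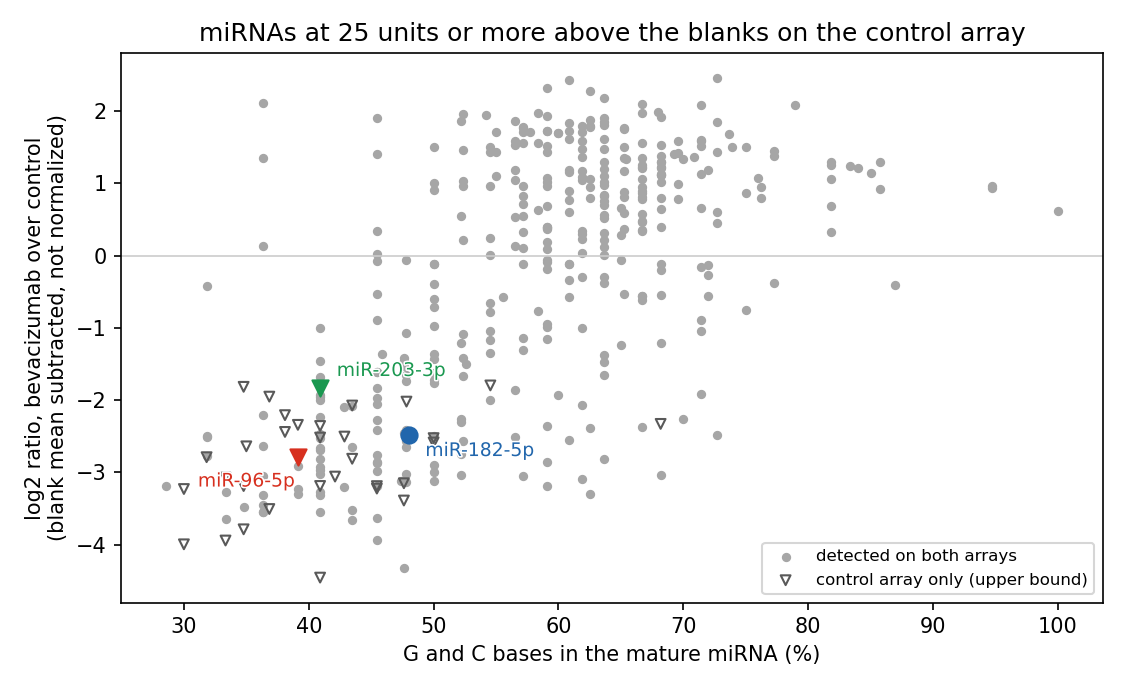
Share of G and C bases in the mature miRNA (horizontal, percent) against the log2 ratio of bevacizumab over control intensity with the blank mean subtracted and no scaling (vertical), for miRNAs at 25 units or more above the blanks on the control array. Grey points were detected on both arrays and triangles on the control array only, where the ratio is an upper bound, and colour marks the members; miR-96-5p, miR-182-5p and miR-203-3p lie among the miRNAs with few G and C bases, whose ratios are mostly below 0.

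All 5 members also have early catalogue entries, with miRBase accession numbers below 1000. Of such early miRNAs, 8 of 21 (38.1%) at 50 to 100 units on the control array and 12 of 22 (54.5%) at 25 to 50 units were not detected on the bevacizumab array. For later entries the counts were 6 of 88 (6.82%) and 9 of 111 (8.11%). Early entries were also poorer in G and C, with a median of 45.5% over 109 miRNAs at 25 units or more, against 61.9% over 291 later ones.

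The local background around the bright members was raised on the control array by about as much as the spots themselves. For miR-182-5p the ring around the spot read 181 units on the bevacizumab array and 127.1 units on the control array, against spots of 194.7 and 127.2 units. The control spot thus exceeded its ring by 0.129 units, although it exceeded the blanks by 54.4 units. Relative to the rings of the blank spots, the ring of miR-182-5p stood at 24.6 units on the bevacizumab array and at 63.8 units on the control array. On the bevacizumab array this was more than the rise of the spot itself (9.72 units). By the same measure the ring of miR-96-5p stood at -7.22 units on the bevacizumab array and at 55.4 units on the control array. That of miR-203-3p stood at 10.0 units on the bevacizumab array and at 32.5 units on the control array. In all, 528 control-array probes exceeded the blanks by more than 20 units, and 117 of them (22.2%) had a ring raised by at least 0.9 of the spot's own rise, all 3 of these members among them. In another setting, normexp (offset 50) and quantile normalization used the rings in place of the blanks, with detection still judged on the blanks. The log2 difference of miR-182-5p was then 0.084. There miR-203-3p was at least 1.02-fold lower, miR-183-5p at least 1.24-fold and miR-205-5p at least 1.12-fold lower. miR-96-5p had no bound, since its level on the bevacizumab array was not under its control level. The spot of miR-96-5p exceeded its ring by 34.9 units on the bevacizumab array and 10.1 units on the control array. Blank spots exceeded their rings too, so these excesses alone are not signal. The blank spots averaged 185 units and their rings 157 units on the bevacizumab array, against 72.8 and 63.3 units on the control array. With the rings as background, no lower value was thus seen for miR-182-5p or miR-96-5p, and the bound of miR-203-3p was only 1.02-fold. What raised the rings was not tested.

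**Figure D4:**
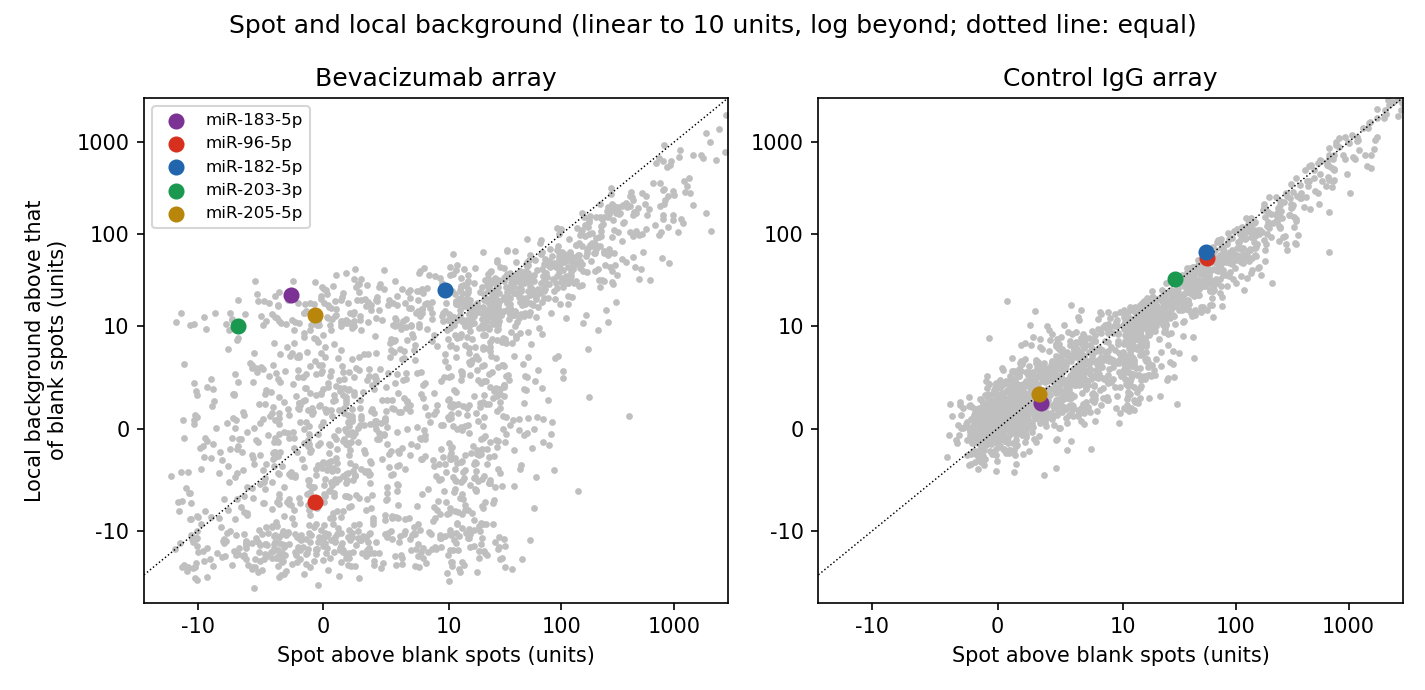
Intensity of each miRNA spot above the blank spots (horizontal) against its local background above that of the blank spots (vertical), both in units on axes linear to 10 and logarithmic beyond, for the bevacizumab array (left) and the control IgG array (right); the brightest probes lie beyond the axes. On the control array miR-96-5p, miR-182-5p and miR-203-3p lie near the dotted line of equality, and on the bevacizumab array they do not.

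The opposite arms of the same hairpins gave little signal on either array. None of the 5 was detected on the bevacizumab array, where they ranged from -5.15 units (miR-205-3p) to 2.96 units (miR-183-3p) relative to the blank mean. On the control array 3 of 5 were detected: miR-183-3p at 4.47 units, miR-182-3p at 2.08 units and miR-96-3p at 2.02 units. Of these only miR-183-3p passed 5 SD, and 18 and 22 blank spots were as bright as miR-182-3p and miR-96-3p. miR-203-5p and miR-205-3p were under the blank mean on both arrays. All 3 detected arms were too dim for a bound after normexp and quantile normalization and without scaling, and the authors' deposited table puts miR-183-3p at least 1.33-fold lower.

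The miR-200 family, the other miRNA set that marks epithelium, had the same detection counts as the members at the 2 SD limit, but not at stricter ones. On the bevacizumab array 1 of its 5 probes was detected and on the control array 5 of 5, with summed detected levels of 31.4 and 549 units. At 5 SD the members had 0 detected on the bevacizumab array and 3 on the control array, against 1 and 5 of the miR-200 family. With block blanks the members had 0 and 5, against 2 and 5 of the miR-200 family. miR-200b-3p stood 31.4 units above the blanks on the bevacizumab array and 196 units on the control array, 3.19-fold lower after normexp and quantile normalization and 6.23-fold lower without scaling. With the rings as background, miR-200b-3p was higher on the bevacizumab array (log2 0.38) and miR-200a-3p had no bound. In that setting miR-200c-3p was at least 1.62-fold, miR-141-3p at least 1.29-fold and miR-429-3p at least 2.08-fold lower. miR-200c-3p was the miRNA nearest to miR-96-5p in its normalized log2 levels on the 2 arrays (distance 0.017), at -2.41 units relative to the blank mean on the bevacizumab array and 56.7 units on the control array. The next nearest was miR-374c-5p (distance 0.10), and nearness over 2 arrays says only that both levels were alike. miR-361-5p and miR-505-5p were nearest to miR-182-5p (distances 0.035 and 0.035), and miR-212-3p and miR-145a-3p to miR-203-3p (0.034 and 0.060). Within a distance of 0.1 lay 660 probes for miR-183-5p and 703 for miR-205-5p. The nearest of these were miR-7680-3p and miR-6964-5p to miR-183-5p, and miR-7229-5p and miR-449a-5p to miR-205-5p.

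Summed stromal and mural, endothelial, leukocyte and erythroid markers were also lower on the bevacizumab array, although single markers went the other way. The 5 stromal and mural probes were all detected on both arrays, with summed levels of 518 and 3913 units, and 4 of 5 were at least 2-fold lower after normexp and quantile normalization (median log2 -2.15). The remaining one, miR-214-3p, was at 140 units on the bevacizumab array and 87.2 units on the control array (log2 0.39). The 2 endothelial probes summed to 86.5 and 997 units, and both were at least 2-fold lower. Of 4 leukocyte probes, 2 were detected on the bevacizumab array and 4 on the control array (sums 72.1 and 214 units), and neither of the 2 seen on both was 2-fold lower. Of these, miR-150-5p was at 44.2 units on the bevacizumab array and 21.1 units on the control array (log2 0.33). Erythroid sums were 144 and 1699 units (1 and 2 of 2 probes detected). For liver, gut, pancreas, muscle and neural probes together the sums were 241 and 2217 units, with 3 and 5 of 8 detected, and muscle miR-1a-3p alone gave 10.5 and 1348 units. Neither array detected liver miR-122-5p, neural miR-124-3p or pancreatic miR-216a-5p. The other pancreatic probe, miR-217-5p, was detected on the control array alone, at 2.25 units. Of the gut and liver probes, miR-192-5p was at 1.40 units on the bevacizumab array, not detected, and 71.7 units on the control array. miR-194-5p was detected on both, at 8.37 and 127 units. The part of these cell types in the members' readings was not tested.

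The authors' deposited table, which has no offset, lists miR-182-5p at 8.0 on the bevacizumab array and 107.7 on the control array, 13.5-fold lower. In the authors' deposited table miR-96-5p (110.9), miR-203-3p (57.3), miR-183-5p (6.9) and miR-205-5p (6.6) are listed for the control array only. Against the lowest value listed for the bevacizumab array (6.6), the authors' deposited table puts miR-96-5p at least 16.8-fold lower, miR-203-3p at least 8.68-fold lower and miR-183-5p at least 1.05-fold lower. Of the 918 miRNAs with both values in the authors' deposited table, 298 (32.5%) were lower by 2-fold or more and 27 (2.94%) higher by as much. Of the 499 listed for the control array alone, 35.9% had a bound of 2-fold or more.

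**Figure D5:**
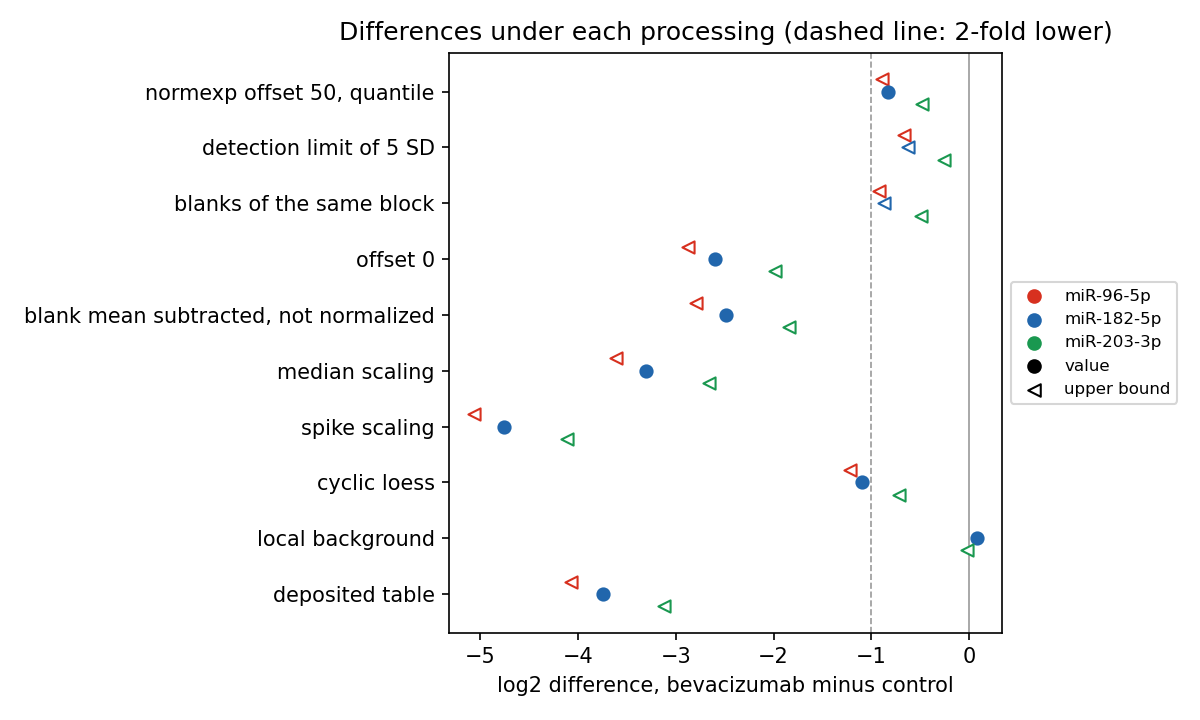
Log2 difference, bevacizumab minus control, of miR-96-5p, miR-182-5p and miR-203-3p under each way of processing the arrays; filled circles are values of miRNAs detected on both arrays and open triangles are upper bounds. miR-182-5p lies between -4.76 with spike scaling and 0.084 with local background, where miR-96-5p had no bound and is not drawn.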

How the data were processed

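Cy5-labelled total RNA was hybridised to 1 array per group. Per the file headers, the deposited scanner values are linear spot and local background intensities at 635 nm, combined from 3 scan gains by least squares, neither background-corrected nor normalized. The deposited value table holds intensities that matched the spot minus the blank mean times 0.822 (bevacizumab) and 1.98 (control), with departures up to 0.0510 and 0.0512 and a median of 25.0 for each array. Which software made them is not given in the sources read.

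Blank means and SDs were taken over 896 blank spots after trimming 5% at each end. Levels were corrected with normexp on the blanks (offset 50) and quantile-normalized over all 1900 miRNA probes with limma 3.58.1 in R 4.3.3, which was tested on simulated data; other steps used Python 3.11.15. Differences are bevacizumab minus control. A bound is taken against the higher of the lowest detected level on the bevacizumab array and the probe's own level. The offset and quantile steps shrink differences of dim probes.

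The text names the 5 members, their opposite arms, the miR-200 family, cell type markers and the 2 probes nearest to each member; miR-203b was not matched on the array. Members and lists were chosen with earlier results of these data known, and the brightness, G and C and catalogue classes after seeing the values. The alternatives were 5 SD, block blanks, offset 0, no normalization, median, spike and cyclic loess scaling, local background and the deposited table. Precision is known only from the blank spots within each array, and the spread between samples is unknown. In the closing section a log2 difference was taken as moved when it shifted by more than the SD of a log2 difference over repeated spots of bright control probes (0.16), a technical measure that does not cover dim spots. That rule does not apply to the counts given there.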

Additional observations from a re-analysis of the deposited data

How the results depend on the processing

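With 5 SD, 0 members were detected on the bevacizumab array and 3 on the control array, and with block blanks 0 on the bevacizumab array; the deposited table lists 1 and 5, as in the report. The bound of miR-96-5p (log2 -0.89) was -0.66 at 5 SD, -2.87 with offset 0, -2.79 without normalization, -3.61 with median scaling, -5.06 with spike scaling, -1.22 with cyclic loess and -4.07 in the deposited table, and there was none with local background. For miR-182-5p (log2 -0.83) these were -0.63 (a bound), -2.59, -2.48, -3.30, -4.76, -1.10 and -3.75, and 0.084 with local background. For miR-203-3p (bound -0.48) they were -0.26, -1.98, -1.84, -2.66, -4.11, -0.72 and -3.12, and -0.025 with local background. With block blanks the 3 were bounds of -0.92, -0.87 and -0.49. miR-183-5p and miR-205-5p had bounds of 2.08-fold and 1.98-fold lower with spike scaling, 1.04-fold and 1.03-fold with cyclic loess, and 1.24-fold and 1.12-fold with local background, and miR-183-5p alone had one in the deposited table. Counts of all miRNAs at least 2-fold higher were 303 with offset 0, 373 without normalization, 91 with median scaling and 5 with spike scaling, against 96. They were 61 with cyclic loess, 48 with local background and 27 in the deposited table. Those at least 2-fold lower were 157 with offset 0, 148 without normalization, 209 with median scaling and 645 with spike scaling, against 105. These lower counts were 129 with cyclic loess, 49 with local background and 298 in the deposited table. The median over all miRNAs detected on both arrays was log2 0.14 after quantile normalization, 0.82 without normalization and -1.45 with spike scaling. The cause of these shifts was not tested. No paired analysis was possible because each group had 1 array, and no replicate could be left out.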
